A study of Mus musculus with 12 samples.

Results

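The genes described are 6 matrix metalloproteinases (Mmp2, Mmp3, Mmp14, Mmp15, Mmp17 and Mmp19) and the 4 tissue inhibitors of metalloproteinases (Timp1, Timp2, Timp3 and Timp4) of the mouse. They were taken by name from a table of gene levels in 12 brain cell libraries, and they are 10 of its 55421 named entries. All 10 were found, and all 10 passed the filter on low values (1 FPKM or more in at least 3 libraries), as did 15747 genes in all. FPKM counts fragments relative to gene length and library size, so levels of different genes can be set side by side. A-iSC is the label of mouse astrocytes after 5 days of incubation as 3D cell spheres. P56-NSC and P0-NSC are labelled as brain-derived neural progenitors that served as positive controls, with no incubation time, sort or dissection given. By name these groups differ in age, P56 for adult and P0 for newborn brain, so their contrast is also one of age. AST is the label of the astrocytes at day 0 of incubation, the negative control. All 4 groups came from C57BL/6 brain and held 3 libraries each, and the labels name no transgene or added agent. The labels leave unsaid whether replicates came from different animals or cultures. P-values thus reflect only how far replicate libraries differed, and that spread can be purely technical.

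Matrix metalloproteinases are zinc enzymes that cut collagens, proteoglycans and other proteins outside the cell, and most are made as inactive precursors that must be cut to become active. Timp proteins bind the active site of these enzymes and block it. The exchange between the families is not only inhibition: on the cell surface Timp2 and the membrane-bound enzyme Mmp14 hold pro-Mmp2 in a complex in which it is activated. In the brain, astrocytes are a source of both families, and the enzymes are known for their part in the remodelling of matrix, cell migration and the response to injury.

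The start regions of 3 members are shown because these genes had unlike patterns over the groups: Timp1 and Mmp3 were highest in AST and near 0 in P56-NSC, while Timp4 was highest in P56-NSC. Each window runs from 250 bases before to 50 bases after the gene start in RefSeq (GRCm38.p6), 5′ to 3′ on the gene's strand. Capitals mark an AP-1 motif or a variant of it, the DNA letters that Fos and Jun family factors are known to bind.
Timp1: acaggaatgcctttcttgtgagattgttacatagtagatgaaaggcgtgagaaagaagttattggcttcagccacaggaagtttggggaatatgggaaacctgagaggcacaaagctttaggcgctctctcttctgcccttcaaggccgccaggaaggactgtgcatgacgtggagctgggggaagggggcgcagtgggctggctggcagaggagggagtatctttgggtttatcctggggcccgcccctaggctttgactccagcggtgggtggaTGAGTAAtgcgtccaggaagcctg
Mmp3: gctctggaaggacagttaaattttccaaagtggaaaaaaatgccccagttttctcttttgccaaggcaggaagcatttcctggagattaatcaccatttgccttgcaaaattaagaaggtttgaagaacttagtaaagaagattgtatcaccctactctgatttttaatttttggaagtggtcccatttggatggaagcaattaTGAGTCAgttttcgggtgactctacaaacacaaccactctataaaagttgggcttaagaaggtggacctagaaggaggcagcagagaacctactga
Timp4: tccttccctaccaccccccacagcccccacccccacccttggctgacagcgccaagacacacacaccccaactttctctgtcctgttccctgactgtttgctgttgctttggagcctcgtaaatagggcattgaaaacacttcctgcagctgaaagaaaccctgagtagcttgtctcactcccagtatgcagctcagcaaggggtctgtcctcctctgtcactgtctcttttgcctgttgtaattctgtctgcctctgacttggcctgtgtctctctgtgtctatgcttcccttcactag
The Timp1 window (chrX:20869916-20870215, plus strand) held the variant TGAGTAA 27 bases into the gene, a motif added after the sequence was seen. The Mmp3 window (chr9:7445572-7445871, plus strand) held the motif TGANTCA 46 bases before the gene start, and a TATA box (TATAAA). No AP-1 motif, variant, GC box (GGGCGG) or TATA box was in the Timp4 window (chr6:115252156-115252455, minus strand). Of 32851 such mouse windows, 7.81% held TGANTCA on either strand, 2.68% TGAGTAA, 35.7% the GC box and 13.6% the TATA box, and no motif overlap was corrected for. RefSeq windows were matched for 7 of the 10 members, and of these 1 held TGANTCA. Timp2, Timp3 and Mmp15 windows were rich in G and C, at 68.7%, 67.0% and 66.0%, against 40.0% for Mmp3. A match describes the letters only, and binding was not measured.

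Libraries held 17077780 to 24452419 reads counted to genes. In AST 2, A-iSC 1 and A-iSC 2, the deviation from the group mean fell with gene length (Spearman correlation across genes -0.450 to -0.233), and in AST 1, AST 3 and A-iSC 3 it rose (0.328 to 0.385). AST 2 and A-iSC 3 thus stand apart within their groups, and results that rest on them are given without them too. Against the labels, summed levels of 10 astrocyte markers were 1377 to 2686 FPKM in A-iSC, 3223 to 3540 FPKM in P56-NSC, 285 to 355 FPKM in P0-NSC and 165 to 189 FPKM in AST. The 10 stem and progenitor markers summed to 1583 to 2116 FPKM in A-iSC, 249 to 276 FPKM in P56-NSC, 904 to 987 FPKM in P0-NSC and 2616 to 3586 FPKM in AST. Most of the AST sum was Vim, the vimentin gene, at 2186 ± 466 FPKM, and by gene the list was split: 4 markers were higher and 3 lower in A-iSC, 3 higher and 7 lower in P56-NSC, and 6 higher and 4 lower in P0-NSC, each against AST. The median log2 changes were 0.23, -0.56 and 0.36. The 10 oligodendrocyte markers summed to 11721 to 13385 FPKM in P56-NSC and to no more than 92.3 FPKM elsewhere, so the libraries labelled P56-NSC held much myelin RNA. Their stem markers were also mostly lower than in P0-NSC, with 2 higher and 7 lower. Reads of the mitochondrial genome made up 16.5% to 17.6% in P56-NSC and 2.94% to 7.03% in the other groups. The 5 red blood cell markers summed to 360 to 565 FPKM in P56-NSC and 163 to 338 FPKM in P0-NSC, against at most 0.548 FPKM in A-iSC and 0.143 FPKM in AST. In bulk RNA such as this, fewer cells of a type and less RNA per cell cannot be told apart.

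Across the 10 genes, most levels were highest in AST. Timp1, Timp2, Timp3, Mmp2, Mmp3 and Mmp14 had their highest mean there, Mmp15 and Mmp17 in P0-NSC, Timp4 in P56-NSC and Mmp19 in A-iSC. By limma, which tests each gene against the spread between libraries and adjusts p over all genes tested, a gene was called at an adjusted p below 0.05. In A-iSC, 3 members were higher and 7 lower than in AST, where 58.9% of all genes were called (28.1% higher and 30.8% lower). P56-NSC against AST had 2 higher, 6 lower and 2 not called, with a background of 74.1% (37.1% higher, 37% lower). P0-NSC against AST had 2 higher and 8 lower, with a background of 74.2% (35.9% higher, 38.3% lower).

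Between the other groups, A-iSC against P56-NSC had 5 members higher, 3 lower and 2 not called, where 62.9% of all genes were called (31.5% higher, 31.3% lower). A-iSC against P0-NSC had 7 higher and 3 lower, with a background of 67.3% (32.6% higher, 34.7% lower). P56-NSC against P0-NSC had 2 higher, 5 lower and 3 not called, with a background of 69.2% (35.3% higher, 33.9% lower). The median log2 change of the members was -0.93, -1.75 and -1.41 in A-iSC, P56-NSC and P0-NSC against AST, and 0.00, -0.0042 and -0.037 over all genes tested. These 3 comparisons share the AST libraries, and the other 3 share the libraries of the remaining groups. With so many genes called in every comparison, the sizes and order of levels say more about these members than the counts.

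**Figure D1:**
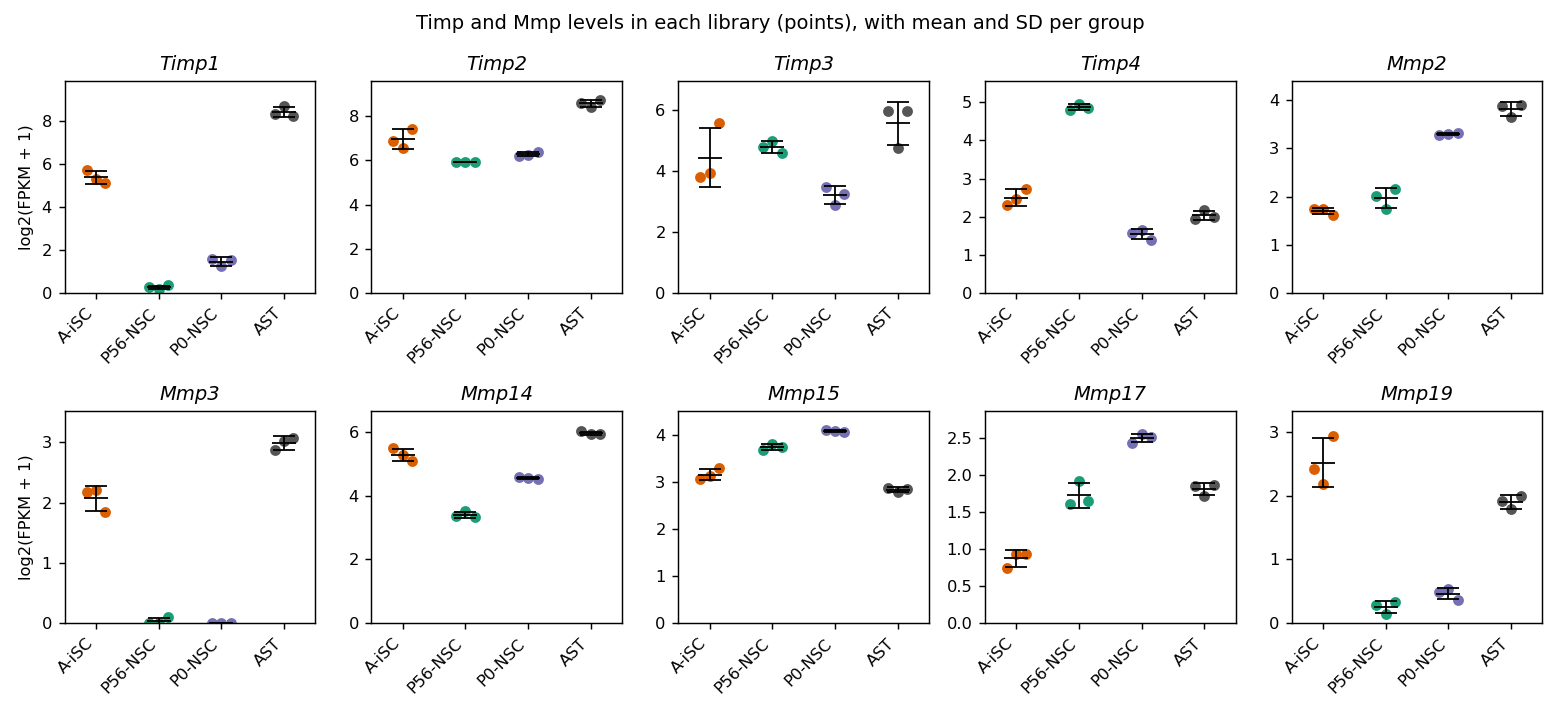
Levels of the 10 members in each library, as log2(FPKM + 1) on the vertical axis, with 1 point per library and bars for the mean and SD of each group (n = 3). The vertical scale differs between genes. Timp1 lay at 321, 423 and 309 FPKM in AST and under 0.3 FPKM in every P56-NSC library, while Timp4 lay at 26.8 to 30.3 FPKM in P56-NSC and under 6 FPKM elsewhere.

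Timp1, a secreted inhibitor that injured tissue is known to induce, covered the widest range of the 10 on the log2(FPKM + 1) scale. The gene (ENSMUSG00000001131) lies on chromosome X at 20870166 to 20874735 (GRCm38, plus strand), within Syn1 on the opposite strand, with 0 exon bases shared. Timp1 was at 52.4, 38.4 and 34.2 FPKM in A-iSC, at 0.195, 0.140 and 0.273 FPKM in P56-NSC, at 2.02, 1.35 and 1.92 FPKM in P0-NSC and at 321, 423 and 309 FPKM in AST. No library of any group overlapped another group, and the order was AST, A-iSC, P0-NSC and P56-NSC from high to low. Only 9 reads stood behind the 3 P56-NSC libraries (exact 95% Poisson interval 4.12 to 17.1, counting error only), against 123 in P0-NSC. The level in A-iSC was 201 times that in P56-NSC (95% counting interval 106 to 439), and the level in P0-NSC was 8.57 times that in P56-NSC (4.37 to 19.2). AST held 1743 times the P56-NSC level (918 to 3813).

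Timp1 was called in every comparison. On the log2(FPKM + 1) scale, which understates changes at low levels, it was 3.93 ± 0.17 (SE) higher in A-iSC than in P0-NSC (limma adjusted p = 1.56e-09) and 5.13 ± 0.17 higher than in P56-NSC (limma adjusted p = 1.55e-10). Its change in P0-NSC against AST was -6.99 ± 0.17 (limma adjusted p = 1.78e-11), and its change in P56-NSC against P0-NSC was -1.19 ± 0.17 (limma adjusted p = 4.52e-05). The change in A-iSC against AST was -3.05 ± 0.17 (limma adjusted p = 2.59e-08), and -2.78 without AST 2 and A-iSC 3. A-iSC therefore lay between the brain-derived groups and AST, 8.43 times below AST and 23.6 times above P0-NSC in the ratio of means.

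Timp2, the inhibitor that also takes part in the activation of Mmp2, had the highest mean of the 10 members in all 4 groups, although in AST 2 Timp1 was above it. The gene (ENSMUSG00000017466, chromosome 11 at 118301069 to 118355740, minus strand) overlaps Cep295nl without sharing exon bases. Timp2 was at 118, 93.4 and 172 FPKM in A-iSC, at 59.5, 60.4 and 59.9 FPKM in P56-NSC, at 72.9, 75.4 and 82.7 FPKM in P0-NSC and at 390.4, 337 and 419 FPKM in AST. The 4 groups did not overlap, and the 3 P56-NSC libraries were nearly equal. Its change was -1.61 ± 0.18 in A-iSC against AST (limma adjusted p = 1.07e-05), -2.65 ± 0.18 in P56-NSC against AST (limma adjusted p = 5.37e-08) and -2.29 ± 0.18 in P0-NSC against AST (limma adjusted p = 2.35e-07).

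Set against the brain-derived groups, Timp2 was higher in A-iSC than in P56-NSC by 1.03 ± 0.18 (limma adjusted p = 0.000319) and higher than in P0-NSC by 0.68 ± 0.18 (limma adjusted p = 0.00531). The difference from P0-NSC was 0.44 without AST 2 and A-iSC 3 (limma adjusted p = 0.00215), and its call ended under quantile normalization (0.40, limma adjusted p = 0.168). Between P56-NSC and P0-NSC the difference of -0.35 ± 0.18 was not called (limma adjusted p = 0.0987), although their libraries did not overlap, and 7 of 23 other settings called it.

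Timp3, an inhibitor that stays bound to the matrix and also blocks several ADAM proteases, was the most variable member. The gene (ENSMUSG00000020044, chromosome 10 at 86300372 to 86349506, plus strand) lies within Syn3 on the opposite strand, which shares 21.3% of its exon bases. The library kit does not mark strand, so reads of the shared bases cannot be assigned, but Syn3 averaged only 0.0899 FPKM in A-iSC, 0.295 FPKM in P56-NSC, 0.485 FPKM in P0-NSC and 0.0699 FPKM in AST. Timp3 was at 13.1, 14.4 and 46.6 FPKM in A-iSC, at 26.7, 31.0 and 23.3 FPKM in P56-NSC, at 10.2, 6.38 and 8.55 FPKM in P0-NSC and at 62.2, 26.0 and 61.5 FPKM in AST. The odd values in A-iSC and AST are those of A-iSC 3 and AST 2, the libraries that stand apart, and only P0-NSC did not overlap any other group.

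Its change in A-iSC against AST was -1.13 ± 0.43 (limma adjusted p = 0.0423), and this call ended in 14 of 23 other settings, with adjusted p from 3.87e-06 to 0.157. Without AST 2 and A-iSC 3 the change was -2.10 (limma adjusted p = 3.87e-06). The difference in P56-NSC against AST was not called (-0.77 ± 0.43, limma adjusted p = 0.129), but without these libraries it was (-1.18, limma adjusted p = 7.17e-05). Timp3 was lower in P0-NSC than in AST (-2.36 ± 0.43, limma adjusted p = 0.000363).

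Timp3 was higher in A-iSC than in P0-NSC (1.24 ± 0.43, limma adjusted p = 0.0245). This call was lost in 4 of 23 other settings: with no filter, without P0-NSC 2, without P0-NSC 3 and without A-iSC 3 (0.67, limma adjusted p = 0.0821). Without both AST 2 and A-iSC 3 it was kept (0.67, limma adjusted p = 0.00357). P56-NSC also had more than P0-NSC (1.59 ± 0.43, limma adjusted p = 0.00615), a call that ended when libraries were scaled by total reads (limma adjusted p = 0.0578). A-iSC against P56-NSC gave -0.36 ± 0.43 (limma adjusted p = 0.496), and -0.92 without AST 2 and A-iSC 3 (limma adjusted p = 0.000507). The direction of that last difference turned to 0.18 when libraries were scaled by total reads (limma adjusted p = 0.726).

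Timp4, the Timp of most restricted tissue range, known from heart and brain, had a group order unlike that of Timp1. The gene (ENSMUSG00000030317, chromosome 6 at 115241892 to 115252205, minus strand) lies within Syn2 on the opposite strand, with 1.53% of its exon bases shared. Syn2 averaged 2.38 FPKM in A-iSC, 14.9 FPKM in P56-NSC, 11.5 FPKM in P0-NSC and 3.93 FPKM in AST. Reads of the shared bases cannot be assigned, and the part of Syn2 in the Timp4 levels was not tested. Timp4 was at 3.93, 4.50 and 5.66 FPKM in A-iSC, at 26.8, 30.3 and 27.9 FPKM in P56-NSC, at 1.97, 2.16 and 1.63 FPKM in P0-NSC and at 2.80, 3.49 and 3.01 FPKM in AST. The groups did not overlap, and P56-NSC stood well above the rest. Its change was 2.84 ± 0.12 in P56-NSC against AST (limma adjusted p = 7.95e-10) and 3.33 ± 0.12 in P56-NSC against P0-NSC (limma adjusted p = 4.57e-10), ratios of means of 9.14 and 14.7.

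The change of Timp4 in A-iSC against AST was small but called (0.47 ± 0.12, limma adjusted p = 0.00569). A-iSC was above P0-NSC (0.96 ± 0.12, limma adjusted p = 2.1e-05) and below P56-NSC (-2.37 ± 0.12, limma adjusted p = 7.21e-09). P0-NSC was below AST by a change of -0.49 ± 0.12 (limma adjusted p = 0.00301), a call that ended when libraries were scaled by total reads (-0.29, limma adjusted p = 0.0545). Of the 10 astrocyte markers, 8 were higher and 0 lower in A-iSC than in AST and 10 were higher in P56-NSC than in AST, as Timp4 was, with none at 0 in any group. In P0-NSC, where Timp4 was lower than in AST, 5 were higher and 4 lower. All 10 oligodendrocyte markers were higher in P56-NSC than in AST, and 6 were higher and 1 lower in P0-NSC, with Mobp and Opalin at 0 in AST and Opalin at 0 in P0-NSC. The part of these cell types in the Timp4 levels was not tested.

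Mmp2, the secreted gelatinase that cuts collagen IV and denatured collagen, was lowest in A-iSC. The gene (ENSMUSG00000031740) lies on chromosome 8 at 92827291 to 92853420, plus strand. Mmp2 was at 2.33, 2.33 and 2.07 FPKM in A-iSC, at 3.01, 2.35 and 3.46 FPKM in P56-NSC, at 8.65, 8.87 and 9.01 FPKM in P0-NSC and at 13.8, 11.6 and 14.0 FPKM in AST. No groups overlapped, though A-iSC and P56-NSC nearly touched. Its change in A-iSC against AST was -2.12 ± 0.11 (limma adjusted p = 1.85e-08), a 5.86-fold difference of means.

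Against P0-NSC the change of Mmp2 in A-iSC was -1.60 ± 0.11 (limma adjusted p = 1.01e-07) and that in P56-NSC was -1.33 ± 0.11 (limma adjusted p = 5.27e-07). P56-NSC was below AST (-1.85 ± 0.11, limma adjusted p = 1.69e-08). P0-NSC was below AST by less (-0.52 ± 0.11, limma adjusted p = 0.00113), and total read scaling ended that call (-0.25, limma adjusted p = 0.0708). A-iSC against P56-NSC missed the threshold (-0.27 ± 0.11, limma adjusted p = 0.0501), with calls in 6 of 23 other settings and a turned direction under total read scaling (0.13, limma adjusted p = 0.349). The 12 fibroblast and mural markers, genes of cells that also make Mmp2, summed to 42.1 to 72.5 FPKM in A-iSC, 40.7 to 53.5 FPKM in P56-NSC, 239 to 244 FPKM in P0-NSC and 1884 to 2270 FPKM in AST. In AST nearly all of that sum was Acta2, the smooth muscle actin gene, at 1742, 2113 and 1690 FPKM. Of these 12 markers 3 were higher and 5 lower in A-iSC than in AST, and 9 were higher and 2 lower in P0-NSC than in AST. Their part in the Mmp2 levels was not tested.

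Mmp3, also called stromelysin 1, a secreted protease of proteoglycans and laminin that can also activate other pro-Mmps, was found in A-iSC and AST. The gene (ENSMUSG00000043613) lies on chromosome 9 at 7445822 to 7455975, plus strand. Mmp3 was at 3.53, 3.62 and 2.57 FPKM in A-iSC, at 0, 0 and 0.0674 FPKM in P56-NSC, at 0 FPKM in every P0-NSC library and at 6.29, 7.12 and 7.44 FPKM in AST. A-iSC and AST did not overlap, and the brain-derived groups were at or near 0. In reads, the groups summed to 407 in A-iSC, 2 in P56-NSC, 0 in P0-NSC and 699 in AST.

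A-iSC was lower than AST (-0.91 ± 0.11, limma adjusted p = 1.45e-05), a 2.15-fold difference of means. Counted by reads, A-iSC was 143 times above P56-NSC (95% counting interval 39.5 to 1189), and AST 313 times (86.5 to 2593). Against the limit of 3 reads over the 3 P0-NSC libraries, which is 0.0209 FPKM, Mmp3 was at least 153-fold higher in A-iSC and at least 333-fold higher in AST. By limma A-iSC was called higher than P56-NSC (adjusted p = 8.21e-09) and P0-NSC (adjusted p = 7.49e-09), with fitted sizes that depend on the pseudocount. P56-NSC and P0-NSC could not be told apart at this depth (limma adjusted p = 0.807).

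Mmp14, the main membrane-bound collagenase and the activator of pro-Mmp2, had the highest level of the 6 enzymes in A-iSC, P0-NSC and AST. The gene (ENSMUSG00000000957) lies on chromosome 14 at 54431612 to 54445364, plus strand. Mmp14 was at 43.7, 38.0 and 33.3 FPKM in A-iSC, at 9.22, 10.4 and 9.07 FPKM in P56-NSC, at 23.2, 22.7 and 22.2 FPKM in P0-NSC and at 64.1, 60.0 and 59.9 FPKM in AST. The groups did not overlap and had the same order as those of Timp1 and Timp2. Its change in A-iSC against AST was -0.67 ± 0.10 (limma adjusted p = 0.000121). The corresponding changes were -2.56 ± 0.10 in P56-NSC (limma adjusted p = 3.99e-10) and -1.39 ± 0.10 in P0-NSC (limma adjusted p = 1.08e-07).

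Mmp14 in A-iSC exceeded both brain-derived groups, by 1.89 ± 0.10 over P56-NSC (limma adjusted p = 1.05e-08) and 0.72 ± 0.10 over P0-NSC (limma adjusted p = 4.67e-05). P56-NSC was below P0-NSC (-1.17 ± 0.10, limma adjusted p = 7.16e-07). These Mmp14 calls held in all 23 other settings.

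Mmp15, a membrane-bound enzyme close to Mmp14 in structure, was lowest in AST, where Mmp14 was highest. The gene (ENSMUSG00000031790) lies on chromosome 8 at 95352268 to 95375080, plus strand. Mmp15 was at 7.34, 7.74 and 8.84 FPKM in A-iSC, at 11.9, 13.1 and 12.4 FPKM in P56-NSC, at 16.2, 16.1 and 15.8 FPKM in P0-NSC and at 6.38, 5.88 and 6.27 FPKM in AST. No groups overlapped, with P0-NSC highest and AST lowest. Its change was 0.32 ± 0.08 in A-iSC (limma adjusted p = 0.00534), 0.91 ± 0.08 in P56-NSC (limma adjusted p = 7.6e-07) and 1.25 ± 0.08 in P0-NSC (limma adjusted p = 4.81e-08), each against AST. A-iSC was below P0-NSC (-0.93 ± 0.08, limma adjusted p = 9.11e-07) and P56-NSC (-0.59 ± 0.08, limma adjusted p = 5.64e-05), and the last call ended under total read scaling (-0.08, limma adjusted p = 0.438). P56-NSC was slightly below P0-NSC (-0.34 ± 0.08, limma adjusted p = 0.00275).

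Mmp17, an enzyme held to the membrane by a lipid anchor, was low everywhere and lowest in A-iSC. The gene (ENSMUSG00000029436) lies on chromosome 5 at 129584169 to 129611099, plus strand. Mmp17 was at 0.675, 0.915 and 0.919 FPKM in A-iSC, at 2.05, 2.80 and 2.13 FPKM in P56-NSC, at 4.40, 4.85 and 4.73 FPKM in P0-NSC and at 2.61, 2.27 and 2.64 FPKM in AST. Only P56-NSC and AST overlapped. A-iSC was below AST (-0.94 ± 0.10, limma adjusted p = 1.02e-05), below P56-NSC (-0.85 ± 0.10, limma adjusted p = 1.68e-05) and below P0-NSC (-1.63 ± 0.10, limma adjusted p = 5.01e-08). P0-NSC was above AST (0.69 ± 0.10, limma adjusted p = 7.02e-05), and P56-NSC below P0-NSC (-0.77 ± 0.10, limma adjusted p = 3.29e-05). P56-NSC against AST was not called (-0.08 ± 0.10, limma adjusted p = 0.485), and 2 of 23 other settings called it.

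Mmp19, a secreted enzyme that cuts basement membrane proteins, was the member with its highest level in A-iSC. The gene (ENSMUSG00000025355, chromosome 10 at 128790910 to 128800824, plus strand) shares 22.3% of its exon bases with Tmem198b and 6.00% with Gm47093, both on the opposite strand. Mmp19 was at 4.34, 3.55 and 6.66 FPKM in A-iSC, at 0.212, 0.106 and 0.258 FPKM in P56-NSC, at 0.408, 0.447 and 0.288 FPKM in P0-NSC and at 2.79, 2.44 and 2.99 FPKM in AST. No groups overlapped, and A-iSC 3 was the highest library. Its change in A-iSC against AST was 0.61 ± 0.16 (limma adjusted p = 0.00551), and 0.34 without AST 2 and A-iSC 3 (limma adjusted p = 0.0208).

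Tmem198b, whose reads cannot be separated from those of Mmp19 on the shared bases, averaged 6.20 FPKM in A-iSC, 4.35 FPKM in P56-NSC, 3.72 FPKM in P0-NSC and 6.62 FPKM in AST, and like Mmp19 it was highest in A-iSC 3 among the A-iSC libraries, at 9.66 FPKM. Mmp19 was higher in A-iSC than in P56-NSC (2.26 ± 0.16, limma adjusted p = 1.17e-07) and P0-NSC (2.05 ± 0.16, limma adjusted p = 2.7e-07). It was lower than in AST in both P56-NSC (-1.65 ± 0.16, limma adjusted p = 1.28e-06) and P0-NSC (-1.44 ± 0.16, limma adjusted p = 4.87e-06). P56-NSC and P0-NSC, at 34 and 107 reads in all, were not called apart (-0.21 ± 0.16, limma adjusted p = 0.251), and 2 of 23 other settings called them.

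**Figure D2:**
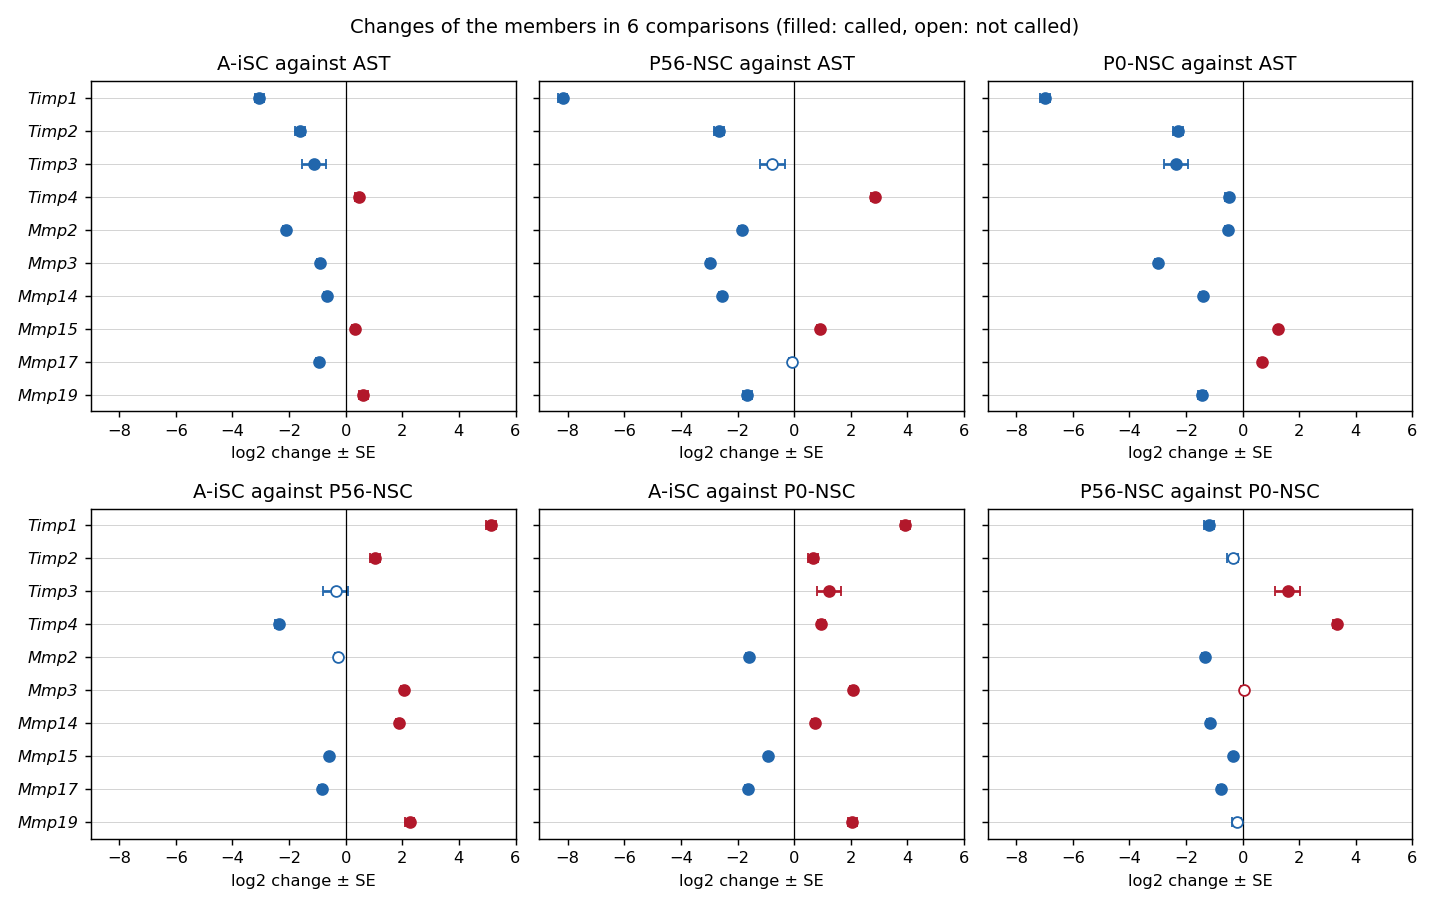
Log2 change ± SE of each member in the 6 comparisons from the limma fit on log2(FPKM + 1), with red above 0 and blue below. Filled points were called at an adjusted p below 0.05 and open points were not. On this scale Timp1 had the largest change of the members in A-iSC, P56-NSC and P0-NSC against AST (-3.05, -8.18 and -6.99). Timp4 was higher in P56-NSC than in AST (2.84). The scale understates changes at low levels. By reads, Mmp3 in AST was at least 333-fold above P0-NSC, and Timp1 was 199-fold above it by the ratio of means.

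Beside the unequal changes, the make-up of each family differed between groups. Of the summed FPKM of the 4 inhibitors, Timp1 was 22.2% ± 7.91 in A-iSC, 0.178% ± 0.0653 in P56-NSC, 1.98% ± 0.368 in P0-NSC and 44.6% ± 7.82 in AST (SD, n = 3 each). Timp4 was 2.42% ± 0.486 in A-iSC, 24.5% ± 0.745 in P56-NSC, 2.17% ± 0.414 in P0-NSC and 0.394% ± 0.0425 in AST. Timp2 held 63.8% ± 2.41 in A-iSC, 52.0% ± 2.14 in P56-NSC, 86.5% ± 2.43 in P0-NSC and 48.6% ± 5.28 in AST. So the inhibitor RNA was mostly Timp1 and Timp2 in A-iSC and AST, Timp2 alone for the most part in P0-NSC, and Timp2, Timp3 and Timp4 in P56-NSC, where Timp3 was 23.3% ± 2.27. A-iSC 3, which stands apart, had more Timp3 (18.0%) than Timp1 (13.2%), while Timp1 was 28.0% in A-iSC 1 and 25.5% in A-iSC 2.

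Among the 6 enzymes, Mmp14 made up 66.5% ± 4.79 in A-iSC, 34.8% ± 1.60 in P56-NSC, 43.2% ± 0.631 in P0-NSC and 66.1% ± 1.57 in AST. Mmp15 made up 14.0% ± 2.22 in A-iSC, 45.2% ± 0.209 in P56-NSC, 30.4% ± 0.198 in P0-NSC and 6.65% ± 0.0718 in AST. In P56-NSC it was Mmp15, not Mmp14, that led the enzymes. Mmp2 was 3.90% ± 0.215 in A-iSC, 10.7% ± 2.31 in P56-NSC, 16.8% ± 0.491 in P0-NSC and 14.1% ± 1.01 in AST, so A-iSC had the AST share of Mmp14 with far less Mmp2. The ratio of Mmp14 to Mmp2 was 17.1 ± 1.51 in A-iSC, 3.38 ± 0.953 in P56-NSC, 2.57 ± 0.109 in P0-NSC and 4.70 ± 0.440 in AST.

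**Figure D3:**
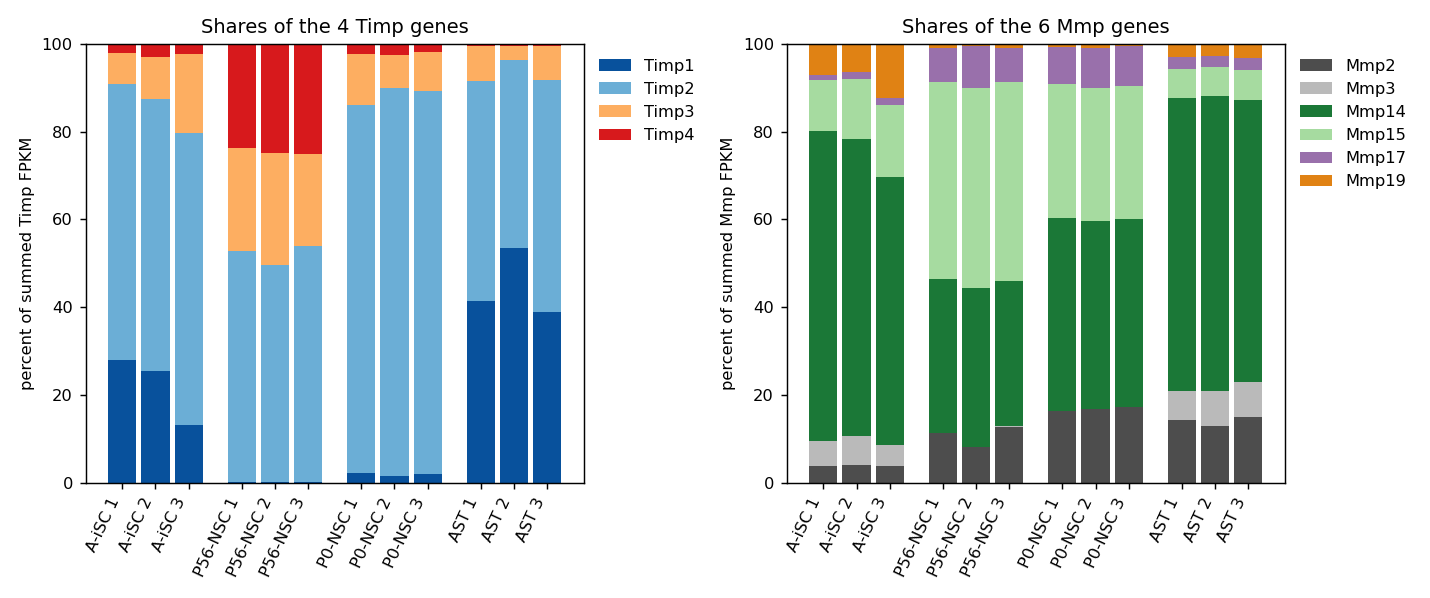
Percent of the summed FPKM of the 4 Timp genes (left) and of the 6 Mmp genes (right) taken by each gene, with 1 stacked bar per library in the order A-iSC, P56-NSC, P0-NSC and AST. Timp1 shrinks to 0.178% on average in P56-NSC, against 44.6% in AST, and Mmp14 with Mmp15 make up most of the Mmp bar in every library.

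The inhibitors summed to 199 ± 54.8 FPKM in A-iSC, 115 ± 5.50 FPKM in P56-NSC, 89.1 ± 5.05 FPKM in P0-NSC and 786 ± 8.38 FPKM in AST. Enzyme sums differed less, at 57.5 ± 3.95 FPKM in A-iSC, 27.5 ± 1.20 FPKM in P56-NSC, 52.6 ± 0.519 FPKM in P0-NSC and 92.8 ± 3.33 FPKM in AST. The ratio of inhibitor to enzyme FPKM was 3.02, 2.68 and 4.75 in A-iSC, and averaged 4.20 ± 0.115 in P56-NSC, 1.69 ± 0.113 in P0-NSC and 8.48 ± 0.372 in AST. AST had the highest ratio and P0-NSC the lowest, and only A-iSC and P56-NSC overlapped. That overlap rested on A-iSC 3 (4.75), as A-iSC 1 and A-iSC 2 lay below every P56-NSC library (4.07 to 4.29). These sums, shares and ratios cover the chosen enzymes only. Mmp24, Mmp11 and Mmp9 lie outside them, at up to 20.7, 15.1 and 8.84 FPKM in a library, and Mmp24 and Mmp9 were highest in P0-NSC. For the pair Timp2 and Mmp14, the ratio was 2.70, 2.45 and 5.17 in A-iSC, with means of 6.28 ± 0.438 in P56-NSC, 3.39 ± 0.296 in P0-NSC and 6.23 ± 0.697 in AST. Without A-iSC 3, the A-iSC ratios of this pair lay below every P0-NSC library (3.14 to 3.72). Ratios of RNA say nothing of protein or of enzyme activity, and no test was made on them.

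For A-iSC against AST, the 10 members were also compared within libraries of like length trend, a description made after the trend was seen. All 10 kept the sign of the fit among A-iSC 1, A-iSC 2 and AST 2 and among A-iSC 3, AST 1 and AST 3. For every member but Timp3 the A-iSC and AST libraries did not overlap, so any split of them had to keep the sign. Each set also had only 1 library on one side. The difference of mean log2(FPKM + 1), A-iSC less AST, was -3.21 and -3.17 for Timp1 and -1.67 and -1.23 for Timp2. For Timp3 it was -0.88 and -0.40, and for Timp4 0.21 and 0.77. For the enzymes it was -1.92 and -2.28 for Mmp2, -0.55 and -0.88 for Mmp14, and 0.52 and 0.98 for Mmp19. The sizes for Timp3, Timp4 and Mmp19 thus depended most on which libraries were set against each other.

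Of 17 other Mmp genes, 9 did not pass the filter on low values, among them Mmp1b and Mmp20, which had no reads in any library. The 8 tested included 4 called higher and 2 called lower in A-iSC than in AST, 1 higher and 5 lower in P56-NSC against AST, and 3 higher and 4 lower in P0-NSC against AST. In these comparisons 58.9%, 74.1% and 74.2% of all genes tested were called. By direction 28.1%, 37.1% and 35.9% were higher and 30.8%, 37% and 38.3% lower, and the 8 genes were not tested against other genes. Mmp12, the macrophage elastase, was at 6.49 ± 1.06 FPKM in A-iSC, 0.0136 ± 0.00888 FPKM in P56-NSC, 0.00334 ± 0.00579 FPKM in P0-NSC and 0.496 ± 0.129 FPKM in AST, and its change in A-iSC against AST was 2.32 ± 0.11 (limma adjusted p = 7.21e-09). Mmp13, a collagenase, was at 2.35 ± 0.278 FPKM in A-iSC and 0.215 ± 0.112 FPKM in AST (1.47 ± 0.09, limma adjusted p = 6.69e-08). The 12 microglia and macrophage markers were all higher in A-iSC than in AST and summed to 2858 to 4018 FPKM in A-iSC, 941 to 1002 FPKM in P56-NSC, 168 to 205 FPKM in P0-NSC and 282 to 347 FPKM in AST, with none at 0. In P56-NSC 10 of them were higher and 0 lower than in AST, and Mmp12, Mmp13 and Mmp19 were lower in P56-NSC than in AST. The part of these cells in the Mmp levels was not tested.

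Mmp9 and Mmp24 had their highest levels in P0-NSC. Mmp9, the second gelatinase, was at 7.35 ± 1.62 FPKM in P0-NSC, against 0.127 ± 0.0805 FPKM in A-iSC, 0.174 ± 0.0596 FPKM in P56-NSC and 0.0955 ± 0.0655 FPKM in AST. Its change was 2.91 ± 0.13 in P0-NSC against AST (limma adjusted p = 1.74e-09). The 10 endothelial markers summed to 3.35 to 4.74 FPKM in A-iSC, 6.29 to 7.15 FPKM in P56-NSC, 88.0 to 95.6 FPKM in P0-NSC and 9.84 to 11.1 FPKM in AST, with 9 higher and 0 lower in P0-NSC against AST and Cldn5 at 0 in AST. The 10 choroid plexus and ependyma markers summed to 55.4 to 68.5 FPKM in A-iSC, 1695 to 3444 FPKM in P56-NSC, 821 to 3919 FPKM in P0-NSC and 47.8 to 53.9 FPKM in AST, with 9 higher and 0 lower in P0-NSC against AST and none at 0. Their part in the Mmp9 level was not tested. Mmp24, a membrane-bound enzyme known from neurons, was at 1.20 ± 0.476 FPKM in A-iSC, 4.13 ± 0.366 FPKM in P56-NSC, 18.6 ± 1.84 FPKM in P0-NSC and 0.317 ± 0.121 FPKM in AST, and its change in P0-NSC against AST was 3.89 ± 0.14 (limma adjusted p = 3.81e-10). The 10 neuronal markers summed to 49.5 to 66.8 FPKM in A-iSC, 251 to 309 FPKM in P56-NSC, 781 to 951 FPKM in P0-NSC and 91.6 to 128 FPKM in AST, with 9 higher and 0 lower in P0-NSC against AST. Their part in the Mmp24 level was not tested.

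The activators, clearance receptors and plasmin genes start or end the work of Mmp enzymes. Of 14 tested, 1 was higher and 8 lower in A-iSC than in AST, 2 higher and 10 lower in P56-NSC, and 2 higher and 9 lower in P0-NSC. Over all genes tested 30.8%, 37% and 38.3% were lower in these comparisons, and the lists were not tested against other genes. Plaur, the receptor of the urokinase activator, was at 6.43 ± 1.28 FPKM in A-iSC, 0.598 ± 0.0497 FPKM in P56-NSC, 0.775 ± 0.0959 FPKM in P0-NSC and 48.1 ± 3.51 FPKM in AST (A-iSC against AST, -2.74 ± 0.12, limma adjusted p = 4.28e-09). By mean level Plaur had the group order of Timp1. The one gene of the list higher in A-iSC was A2m, which encodes the protease trap alpha-2-macroglobulin, at 96.4 ± 38.6 FPKM in A-iSC, 2.29 ± 0.180 FPKM in P56-NSC, 4.71 ± 0.757 FPKM in P0-NSC and 11.8 ± 2.62 FPKM in AST (2.87 ± 0.24, limma adjusted p = 9.77e-07).

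**Figure D4:**
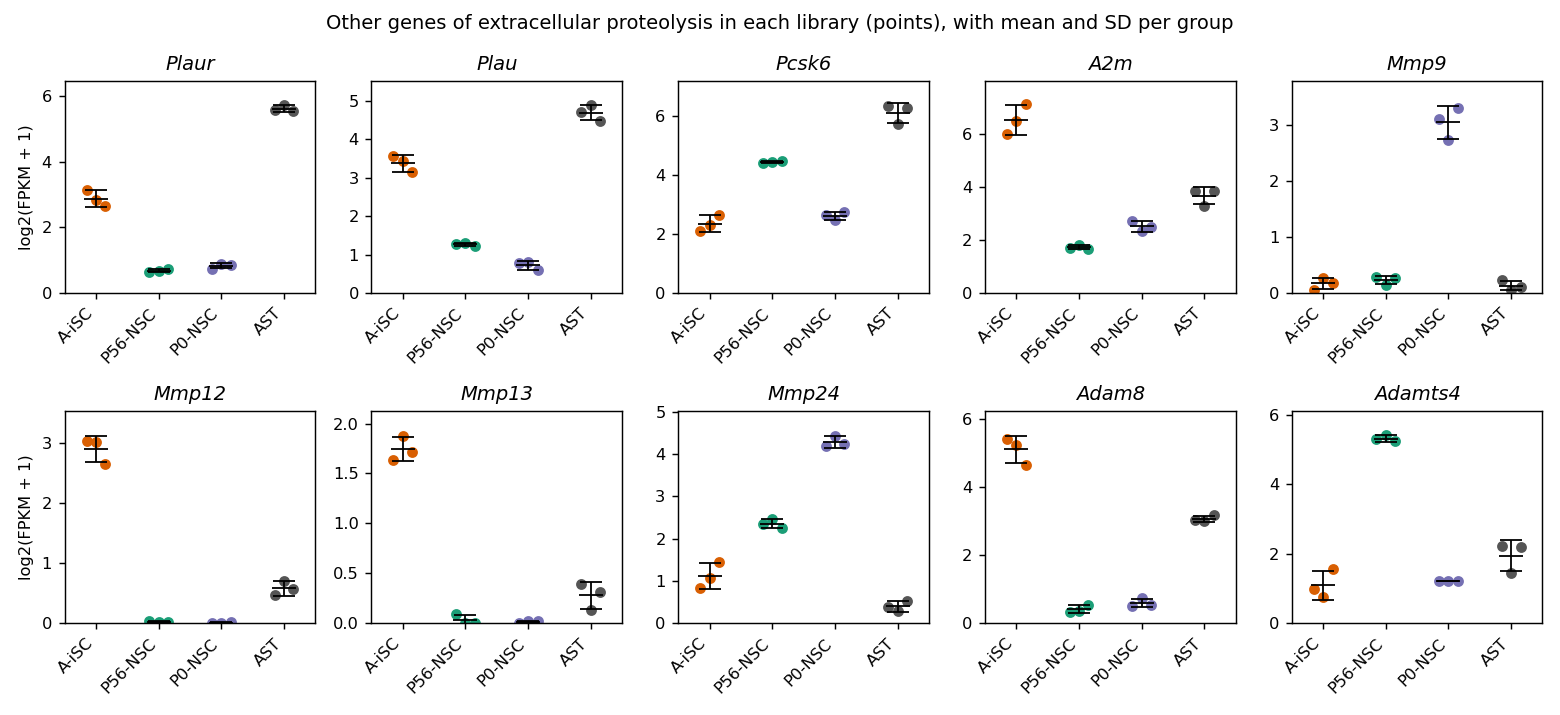
Levels of 10 other genes of extracellular proteolysis in each library, as log2(FPKM + 1), with 1 point per library and bars for the mean and SD of each group (n = 3). Plaur, Plau and Pcsk6 were highest in AST, A2m, Mmp12, Mmp13 and Adam8 in A-iSC, Adamts4 in P56-NSC, and Mmp9 and Mmp24 in P0-NSC. Vertical scales differ between genes.

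Among the 13 ADAM and ADAMTS proteases tested, some of which Timp3 is known to block, 1 was higher and 8 were lower in A-iSC than in AST, 3 higher and 10 lower in P56-NSC, and 2 higher and 10 lower in P0-NSC. Of all genes tested, 28.1%, 37.1% and 35.9% were higher in these comparisons, and 30.8%, 37% and 38.3% were lower. The list was not tested against other genes. Adam8, a protease of myeloid cells, was the one higher in A-iSC, at 34.0 ± 9.05 FPKM in A-iSC, 0.330 ± 0.113 FPKM in P56-NSC, 0.507 ± 0.127 FPKM in P0-NSC and 7.38 ± 0.544 FPKM in AST (2.03 ± 0.17, limma adjusted p = 7.59e-07). Adamts4, an aggrecanase, was at 1.19 ± 0.668 FPKM in A-iSC, 38.9 ± 2.55 FPKM in P56-NSC, 1.32 ± 0.0153 FPKM in P0-NSC and 2.97 ± 1.10 FPKM in AST, and its change in P56-NSC against AST was 3.37 ± 0.22 (limma adjusted p = 4e-08). Adam8 was lower in P56-NSC than in AST (-2.66 ± 0.17, limma adjusted p = 2.52e-08), and Adamts4 was lower in A-iSC than in AST (-0.86 ± 0.22, limma adjusted p = 0.00562). Of the 12 microglia and macrophage markers, all were higher in A-iSC than in AST, and 10 were higher and 0 lower in P56-NSC. The oligodendrocyte markers summed to 11721 to 13385 FPKM in P56-NSC, 73.1 to 92.3 FPKM in A-iSC and 17.9 to 20.0 FPKM in AST. The part of these cells in the Adam8 and Adamts4 levels was not tested.

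Of 12 matrix genes whose proteins are substrates, 1 was higher and 11 lower in A-iSC than in AST, 1 higher and 10 lower in P56-NSC, and 5 higher and 5 lower in P0-NSC. The shares of all genes tested that were lower in these comparisons were 30.8%, 37% and 38.3%, and 28.1%, 37.1% and 35.9% were higher. Fn1, the fibronectin gene, was at 66.3 ± 11.97 FPKM in A-iSC, 0.454 ± 0.116 FPKM in P56-NSC, 17.0 ± 1.70 FPKM in P0-NSC and 299 ± 74.1 FPKM in AST (P56-NSC against AST, -7.66 ± 0.18, limma adjusted p = 7.08e-12). The one gene higher in A-iSC and in P56-NSC was Bcan, the brain proteoglycan brevican, at 53.5 ± 4.20 FPKM in A-iSC, 219 ± 16.7 FPKM in P56-NSC, 53.8 ± 10.4 FPKM in P0-NSC and 8.92 ± 0.860 FPKM in AST. Its change was 2.45 ± 0.13 in P0-NSC against AST (limma adjusted p = 8.01e-09).

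Of 11 genes of AP-1 and Ets factors, families known to act at Mmp and Timp promoters, 3 were higher and 6 lower in A-iSC than in AST, 2 higher and 4 lower in P56-NSC, and 3 higher and 7 lower in P0-NSC. Beside these counts, 58.9%, 74.1% and 74.2% of all genes tested were called in the same comparisons. Fosl1, a Fos family gene, was at 1.33 ± 0.667 FPKM in A-iSC, 0.0600 ± 0.0318 FPKM in P56-NSC, 0.0897 ± 0.0701 FPKM in P0-NSC and 6.97 ± 0.509 FPKM in AST (A-iSC against AST, -1.81 ± 0.16, limma adjusted p = 1.53e-06). Junb, a Jun family gene, was at 104 ± 31.9 FPKM in A-iSC, 36.4 ± 4.22 FPKM in P56-NSC, 7.44 ± 1.84 FPKM in P0-NSC and 34.3 ± 6.95 FPKM in AST (A-iSC against AST, 1.54 ± 0.23, limma adjusted p = 0.000117). Members of this family therefore differed in direction between A-iSC and AST.

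Between the groups other than AST, the balance of higher and lower genes differed between lists and comparisons. A-iSC against P56-NSC had 7 higher and 4 lower of the 14 activator, clearance and plasmin genes, 8 higher and 4 lower of the 13 ADAM and ADAMTS genes, and 8 higher and 3 lower of the 12 matrix genes. Set against P0-NSC, A-iSC had 7 higher and 3 lower, 6 higher and 4 lower, and 1 higher and 9 lower of the same lists. In P56-NSC against P0-NSC the counts were 5 higher and 6 lower, 4 higher and 5 lower, and 1 higher and 10 lower. Of the 8 other Mmp genes tested, 3 were higher and 1 lower in A-iSC than in P56-NSC, 3 higher and 4 lower in A-iSC than in P0-NSC, and 0 higher and 5 lower in P56-NSC than in P0-NSC. Over all genes tested, the higher and lower shares were 31.5% and 31.3% in A-iSC against P56-NSC, and 32.6% and 34.7% in A-iSC against P0-NSC. In P56-NSC against P0-NSC they were 35.3% and 33.9%.

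Genes whose pattern was most like each member were ranked by Pearson correlation over the 12 libraries, among 6761 genes of at least 10 FPKM in their highest group. With 4 groups this far apart such values are high for many genes, and they are given as a description. For Timp1 they were Lgals1 (r = 0.998), Msn (0.997) and Ehd2 (0.996). For Timp2 they were Nectin3 (0.996), Stt3b (0.995) and Itgb1 (0.992), and for Timp3 Pak2 (0.977), Canx (0.970) and Tm9sf2 (0.964). Timp4 was most like Dnajb2 (0.995), S100b (0.995) and Mid1ip1 (0.994), of which S100b is an astrocyte marker.

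Among the enzymes, Mmp14 was most like Nes (0.996), the nestin gene of progenitors and reactive astrocytes, followed by Nek6 (0.994) and Id1 (0.992). Mmp2 was closest to Lamb1 (0.973), Slc35f1 (0.973) and Spry1 (0.972), and Mmp3 to Rhoc (0.996), Akr1b3 (0.996) and Npvf (0.995). Mmp15 was closest to Tub (0.996), Tbc1d16 (0.995) and Nol4 (0.994), Mmp17 to Gle1 (0.980), Rapgef1 (0.977) and Actr1a (0.974), and Mmp19 to Sdcbp (0.987), Ifi211 (0.980) and Gla (0.980). Timp3 and Mmp2 had the lowest best values of the 10.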

How the data were processed

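RNA of 12 mouse libraries was sequenced from 3 µg of total RNA each; the NEBNext kit that the labels' protocols name keeps no strand information. The authors deposited 1 table of FPKM per gene and library. Bowtie 0.12.2, mm8 and mm9 are listed in the submitters' processing notes, yet the coordinates are those of GRCm38 (equal to GENCODE M21 for 99.5% of 55240 identifiers in both). The sources used here name no counting tool. Multiplying FPKM by gene length recovered whole reads (within 0.01) for 100% of values. The totals implied by FPKM are 0.744 to 1.2183 times the recovered reads, so a scaling between libraries is included. One read in 1 kb is worth 0.0343 to 0.0623 FPKM, which limits low values, and intervals and limits cover counting error only. The 441 nameless entries (0.0957% to 0.156% of reads) were left out.

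Groups and replicate numbers came from sample titles. The test was limma 3.58.1 (R 4.3.3) on log2(FPKM + 1): all 12 libraries entered 1 model with group means and no covariate. Genes needed 1 FPKM in 3 or more libraries, and p was adjusted by Benjamini-Hochberg over the 15747 genes of a comparison. The pseudocount understates changes of low genes. Replicate libraries differed by more than sampling noise (chi-square per degree of freedom from 2.51 to 95.1), so none was counted as a duplicate. The procedure was tested on simulated data. The rule for named genes took all 10 members, up to 4 called genes of largest change per list and comparison, and the 3 most alike genes per member; only some of the list genes are printed, and 1 gene of the plasmin list is not reported here. Members and lists were chosen with earlier results of these data known. Figures and tables were made with Python 3.11.15.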

Additional observations from a re-analysis of the deposited data

How the results depend on the processing

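Each member's change was recomputed under 23 other settings: another pseudocount, 2 other filters, 3 other scalings, voom on the recovered reads, only the groups compared, a length covariate, the replicate block, each library left out in turn, and AST 2 and A-iSC 3 left out together. Of the 60 member results, 47 kept their direction and their side of the threshold in all 23 settings. In the other 13, 23 of 1380 values lost a call, 24 gained one and 2 turned round, both under total read scaling (Timp3 in A-iSC against P56-NSC at 0.18 and Mmp2 in A-iSC against P56-NSC at 0.13), and the cause was not tested. That scaling moved the median log2 change of all genes by 0.12, -0.24 and 0.20 in A-iSC, P56-NSC and P0-NSC against AST, by 0.40 in A-iSC against P56-NSC and by -0.45 in P56-NSC against P0-NSC, and quantile normalization by -0.11 in P56-NSC against AST and 0.10 in A-iSC against P56-NSC. Under total read scaling the share of calls that were higher was 60.9%, against 47.7% without it, for A-iSC against AST, 38.7% against 50.1% for P56-NSC against AST, 58.7% against 48.4% for P0-NSC against AST, 73.4% against 50.1% for A-iSC against P56-NSC and 27.3% against 51.0% for P56-NSC against P0-NSC. Libraries of the same replicate number had correlations of deviations of -0.395, 0.342 and 0.442 for A-iSC with AST, and -0.169 to 0.108 otherwise. The signs for A-iSC with AST go with the length trends of these libraries, so they cannot show whether replicate numbers pair them. With the replicate number as a block, 9149, 11582 and 11633 genes were called in A-iSC, P56-NSC and P0-NSC against AST. The block gave 9851 and 10488 in A-iSC against P56-NSC and P0-NSC, and 10846 in P56-NSC against P0-NSC, with no member call changed. With 1 library left out, the genes called numbered 8415 to 9898, 10944 to 12314 and 11060 to 12335 against AST in the same order, 9012 to 10726 and 9805 to 11270 for A-iSC against P56-NSC and P0-NSC, and 10172 to 11711 for P56-NSC against P0-NSC. Depth limits Timp1 and Mmp3 in P56-NSC, at 9 and 2 reads.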
